A study of Mus musculus with 8 samples.

Results

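Elastin, the fibrillins, the fibulins and the microfibril-associated proteins were followed in the skin of UVB-irradiated mice through every array probe that carries the name of 1 of 10 genes: Eln, Fbn1, Fbn2, Fbln1, Fbln2, Fbln5, Efemp2, Mfap2, Mfap4 and Mfap5. For each gene every probe was taken by name, synonyms included, and not by its values. The genes themselves were chosen with earlier results of these data known. They numbered 15 of the 41174 probes on the array, for 10 of its 20849 named genes. In the enalapril group Eln and both fibrillin genes were higher by 1.71- to 2.13-fold, 1 of the probes for Fbln1 was 1.35-fold lower, and no other probe passed the test.

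All 8 mice were males of SKH-1, a hairless strain used as a model of photoaged skin, and all had received 10 weeks of UVB on the back. From 1 week after the end of UVB, 100 µl of vehicle (30 vol % ethanol) or of 1% w/v enalapril maleate in that vehicle was put on the dorsal skin 5 times a week for 2 weeks, and skin was taken at 19 weeks of age. Enalapril inhibits the angiotensin-converting enzyme. There were 4 vehicle and 4 enalapril samples, labelled as biological replicates, each on its own 1-colour (Cy3) Agilent array. The series text also describes 6 weeks of treatment and groups of 6 mice, which were not analysed here, and no unirradiated skin was analysed here, so each value below compares enalapril with vehicle in irradiated skin.

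The elastic fibre of the dermis has a core of crosslinked elastin laid on a scaffold of microfibrils, which are polymers of fibrillin. Fibulins and the fibulin-like protein encoded by Efemp2 bring elastin, its crosslinking enzymes and the microfibrils together, and the microfibril-associated proteins coat or bind the fibrillin polymer. In chronically sun-exposed skin this network is known to be degraded and replaced by disordered elastic material.

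For 6 of the 10 genes a 250-base window directly before the annotated start was read from RefSeq on GRCm38.p6 and searched on both strands for 4 motifs; Eln, Fbn2, Mfap4 and Mfap5 were not searched. The windows of Fbn1, a gene that was higher in the enalapril group, and of Fbln1, a gene with a probe that was lower, are printed 5′ to 3′ on the gene's strand, with motif matches in capitals. The Fbn1 window lies at chr2:125506439-125506688 on the minus strand, is 59.2% G and C, and its capitals mark a GC box (GGGCGG). The Fbln1 window lies at chr15:85205699-85205948 on the plus strand, is 46.4% G and C, and its capitals mark an E-box (CACGTG).

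Fbn1: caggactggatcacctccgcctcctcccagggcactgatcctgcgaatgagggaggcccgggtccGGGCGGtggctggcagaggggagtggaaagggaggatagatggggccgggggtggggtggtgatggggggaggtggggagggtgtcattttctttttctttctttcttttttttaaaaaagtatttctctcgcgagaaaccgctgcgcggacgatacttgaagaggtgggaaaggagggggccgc

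Fbln1: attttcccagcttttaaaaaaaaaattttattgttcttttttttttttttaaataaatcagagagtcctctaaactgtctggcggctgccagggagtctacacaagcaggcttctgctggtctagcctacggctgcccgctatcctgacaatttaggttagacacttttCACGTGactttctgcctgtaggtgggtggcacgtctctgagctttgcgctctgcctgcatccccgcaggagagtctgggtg

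The GC box, also read as CCGCCC on the other strand, was in 4 of the 6 windows (Efemp2, Fbln2, Fbln5 and Fbn1) and in 33.0% of the 27025 windows of the same length over all genes. Those 4 windows were 58.8% to 65.2% G and C, against a median of 52.0% over all windows. The part of this G and C content in the count was not tested. The E-box was in 1 of the 6, that of Fbln1, against 6.04% of all windows. The AP-1 element (TGANTCA) and the TATA box (TATAAA) were in 0 of the 6, against 6.85% and 13.0%. These matches describe the letters in the windows and were not linked to the expression values.

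A level is given as log2 of the spot intensity minus the 75th percentile of the same array, so that 0 is the brightness that 25% of the spots exceed. Levels of different probes are not set against each other, because probes differ in how strongly they bind. A probe was tested where the scanner software marked it as clearly brighter than background in 4 or more samples, which held for 28586 probes in all and for 13 of the 15 probes of these genes. The other 2, both for Fbln5, were above background on 0 of 8 arrays. The 13 tested probes were above background on all 8 arrays and none was saturated. A probe is said to be higher or lower where limma's moderated test gave an adjusted p under 0.05 after Benjamini-Hochberg correction over all 28586 probes, and ± after a change is the standard error.

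Of the 13 probes 5 were called, where 10.4% of all tested probes were. Enalapril was higher in 4 of them, against 3.82% of all tested probes, and lower in 1, against 6.61%. The median change of the 13 was −0.20, and that of all tested probes −0.05. The vehicle and enalapril arrays did not overlap for 7 probes, with enalapril above in 4 and below in 3; over all tested probes the groups did not overlap in 20.2%, with enalapril above in 7.12% and below in 13.1%. All vehicle arrays were on 1 slide and scan and all enalapril arrays on another, so for every difference below the slide, the scan and the treatment cannot be told apart. RNA from whole dorsal skin was measured, so fewer cells of a type and less RNA per cell cannot be told apart either.

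**Figure D1:**
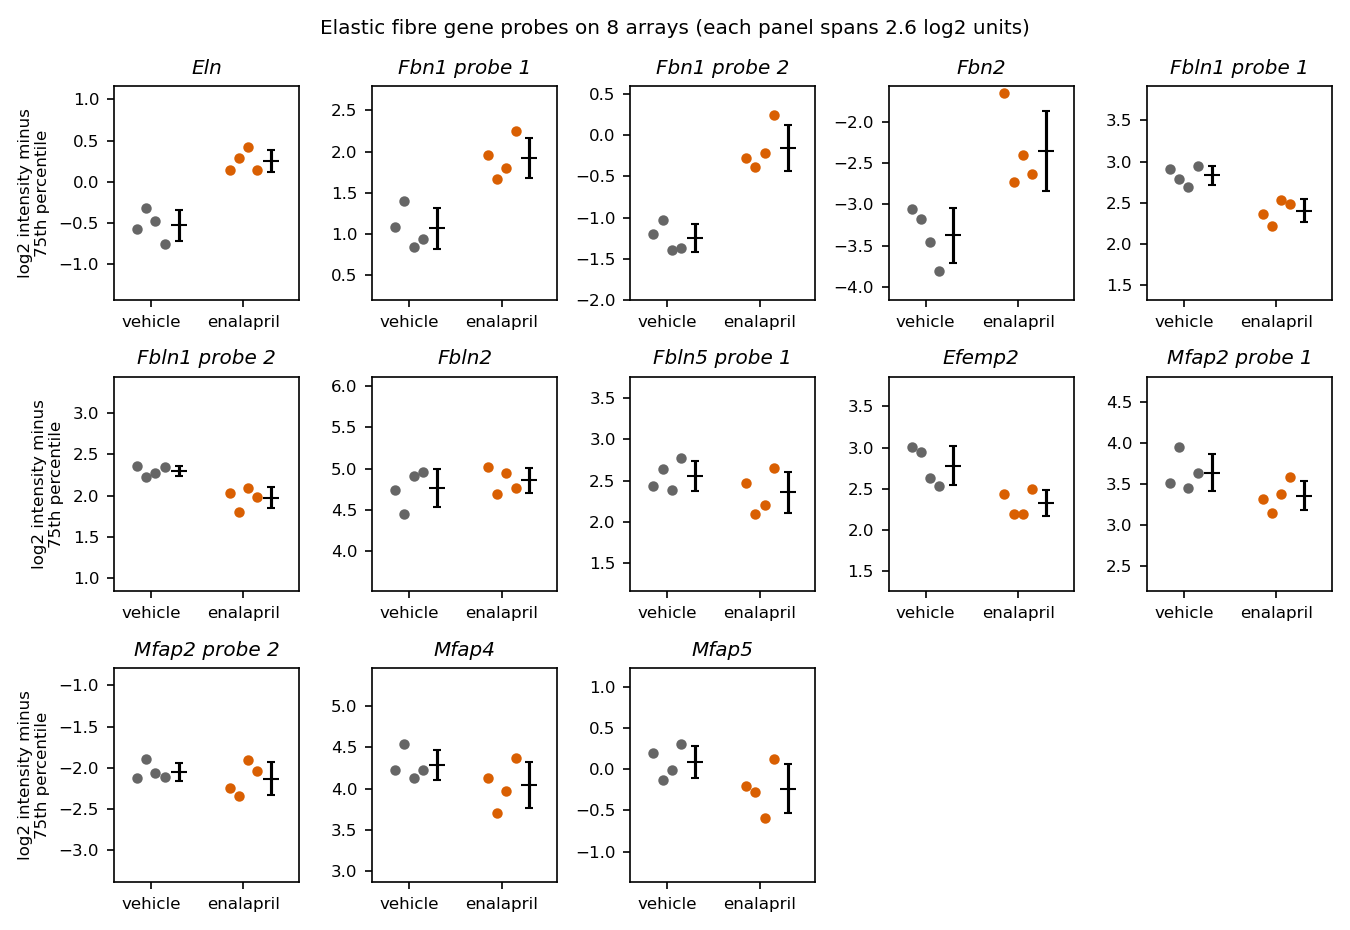
Level of each of the 13 tested probes on the 8 arrays, as log2 intensity minus the array's 75th percentile, for vehicle (grey) and enalapril (orange), with the mean and SD of each group (n = 4) beside the points. Every panel spans the same number of log2 units; the groups are separate, with enalapril above, for Eln, both Fbn1 probes and Fbn2, and with enalapril below for both Fbln1 probes and Efemp2.

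Eln encodes tropoelastin, the monomer that is crosslinked into the core of the fibre. Its probe stood at −0.57, −0.31, −0.47 and −0.75 on vehicle arrays 1 to 4 and at 0.14, 0.29, 0.42 and 0.15 on enalapril arrays 1 to 4. All 4 enalapril arrays were above all 4 vehicle arrays. The change was 0.78 ± 0.12 (95% interval 0.50 to 1.06), a 1.71-fold higher level with enalapril, with a limma adjusted p of 0.0159. Before scaling, the intensities were 600, 1240, 1110 and 524 in vehicle and 1180, 1080, 1100 and 969 in enalapril. The unscaled groups overlap. Vehicle arrays 2 and 3 were brighter over all spots, with 75th percentiles of 1540 each, against 821.5 to 1070 on the other arrays. The call was lost without vehicle array 1 (adjusted p 0.0504) and without enalapril array 2 (0.0513), and kept without each of the other 6.

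Fbn1 encodes fibrillin-1, the main structural protein of microfibrils in adult tissue, and was read by a pair of probes named here in order of brightness. On the first, vehicle arrays stood at 1.09, 1.41, 0.84 and 0.94 and enalapril arrays at 1.96, 1.67, 1.81 and 2.24. On the second, vehicle arrays stood at −1.19, −1.03, −1.40 and −1.37 and enalapril arrays at −0.28, −0.39, −0.22 and 0.25. On both probes every enalapril array was above every vehicle array, vehicle 2 was the highest of its group, and enalapril 4 was the highest and enalapril 2 the lowest of theirs. The change was 0.85 ± 0.17 on the first probe (interval 0.47 to 1.23, 1.80-fold, limma adjusted p 0.0228) and 1.09 ± 0.16 on the second (0.73 to 1.45, 2.13-fold, adjusted p 0.0132). The second probe kept its call without each array in turn; the first lost it, at adjusted p between 0.0506 and 0.0619, without vehicle 1 or 4 or enalapril 1, 2 or 3.

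Within an array, the gap between the probes of Fbn1 was smaller by 0.24 with enalapril (SD 0.09 in vehicle and 0.11 in enalapril, n = 4 each), and the groups did not overlap. The exact two-sided permutation p was 0.0286, the smallest that 70 splits can give, and 0.0858 after adjustment over the 3 genes with a pair of tested probes. For Fbln1 and Mfap2 the gap changed by −0.11 and −0.19, with an exact permutation p of 0.114 each. So in none of these 3 genes did the change pass the test for a difference between its probes. For Fbn1 the adjusted test could not decide this. Already at the smallest p, Fbn1 could not pass after adjustment unless another of the 3 genes reached that p too. The result for Fbn1 therefore does not show that its probes changed alike.

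Fbn2 encodes fibrillin-2, a microfibril protein made mostly during development and tissue repair. Its probe stood at −3.06, −3.18, −3.46 and −3.80 in vehicle and at −1.65, −2.73, −2.41 and −2.64 in enalapril. Every enalapril array was above every vehicle array, and enalapril 1 was the highest of the 8. The change was 1.02 ± 0.26 (interval 0.43 to 1.61), 2.03-fold, with a limma adjusted p of 0.0429. This call was kept only without enalapril 4 (0.025); without each other array the adjusted p rose to at most 0.0988, and the change then ran from 0.79 to 1.15.

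Among the fibulins, Fbln1 encodes fibulin-1, which binds elastin and basement membrane proteins. Its first probe stood at 2.91, 2.78, 2.69 and 2.94 in vehicle and at 2.36, 2.22, 2.54 and 2.48 in enalapril. The second stood at 2.36, 2.23, 2.27 and 2.34 in vehicle and at 2.04, 1.80, 2.09 and 1.98 in enalapril. On both probes every enalapril array was below every vehicle array. The first changed by −0.43 ± 0.11 (interval −0.68 to −0.18), 1.35-fold lower, with a limma adjusted p of 0.044, and the second by −0.33 ± 0.10 with an adjusted p of 0.0707. Leaving out any array except enalapril 4 ended the call of the first probe, with an adjusted p of at most 0.115.

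Efemp2 encodes fibulin-4, which binds lysyl oxidase and tropoelastin during fibre assembly. It stood at 3.01, 2.95, 2.63 and 2.54 in vehicle and at 2.44, 2.19, 2.20 and 2.50 in enalapril, with the groups separate by the small gap between vehicle 4 and enalapril 4. The change of −0.45 ± 0.14 (interval −0.78 to −0.13) did not pass the test, with a limma adjusted p of 0.0769, but passed it without enalapril 4 (0.0402).

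Fbln5 encodes fibulin-5, which deposits tropoelastin on microfibrils. The Fbln5 probe that was above background stood at 2.43, 2.64, 2.39 and 2.77 in vehicle and at 2.47, 2.10, 2.21 and 2.65 in enalapril. The groups overlapped, and the change was −0.20 ± 0.15 (interval −0.54 to 0.15, limma adjusted p 0.418).

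Fbln2 encodes fibulin-2, a partner of fibrillin-1 and elastin at the surface of the fibre. It stood at 4.74, 4.45, 4.92 and 4.95 in vehicle and at 5.02, 4.69, 4.95 and 4.77 in enalapril. The groups overlapped, with a change of 0.09 ± 0.14 (interval −0.23 to 0.41, limma adjusted p 0.698). Its sign turned under plain normexp, in the series matrix and without vehicle 2.

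The 4 probes of the microfibril-associated genes had changes of −0.32 to −0.09 and none passed the test; with plain normexp background correction that of the second Mfap2 probe was 0.20. Mfap2, which encodes a small glycoprotein bound to fibrillin, changed by −0.28 ± 0.14 on its first probe (interval −0.61 to 0.05, limma adjusted p 0.23) and by −0.09 ± 0.12 on its second (0.683). Mfap4, which encodes a fibrinogen-domain protein that binds tropoelastin and fibrillin, stood at 4.23, 4.54, 4.13 and 4.23 in vehicle and at 4.13, 3.71, 3.97 and 4.37 in enalapril. Its groups overlapped, and its change was −0.24 ± 0.16 (interval −0.60 to 0.13, limma adjusted p 0.355). Mfap5, which encodes another small microfibril glycoprotein, changed by −0.32 ± 0.17 (interval −0.71 to 0.06, adjusted p 0.236), and enalapril 3 was its lowest array at −0.59.

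**Figure D2:**
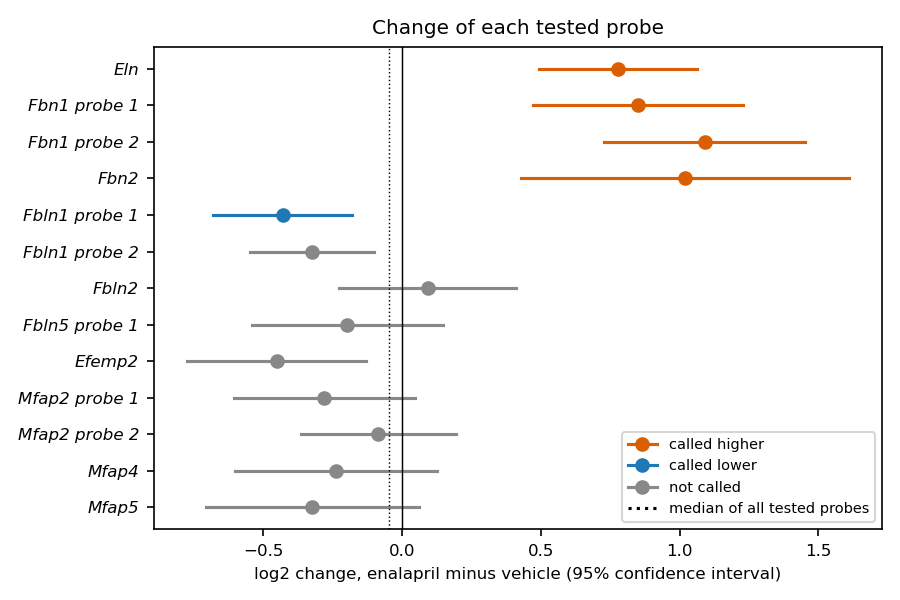
Log2 change, enalapril minus vehicle, of the 13 tested probes with its 95% confidence interval from the limma fit (4 arrays per group), coloured by call; the dotted line is the median of all tested probes, −0.05. Eln, Fbn1 and Fbn2 lie between 0.78 and 1.09, and the other 9 probes between −0.45 and 0.09.

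Within an array, the difference between 2 probes does not depend on the constant by which the array is centred, although it does depend on brightness-related shifts such as those described below. Set against the brightest probe of each of the 7 fibulin and microfibril-associated genes, Fbn2 was higher in every enalapril array than in any vehicle array in 7 of 7 comparisons, by 0.93 to 1.47. For Eln this held in 6 of 7 (changes of 0.69 to 1.23 over the 7) and for the brighter Fbn1 probe in 6 of 7 (0.76 to 1.30). The exception for both was Fbln2, against which the groups overlapped. The gap between Fbn1 and Mfap4 had a small spread, with a change of 1.09 and an SD of 0.09 in vehicle and 0.06 in enalapril (n = 4 each). Under quantile normalization the brighter Fbn1 probe changed by 0.93 and Mfap4 by −0.05, a smaller gap. These comparisons share their probes and arrays, and they show unequal change, not that any 1 gene stayed the same. Eln, Fbn1 and Fbn2 were set against the others after being called higher on these same arrays. The counts therefore largely restate those calls and add no separate evidence. The share of such separate gaps over all pairs of probes was not computed.

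Fbn1 and Mfap4 varied together within the groups, which largely restates the small spread of their gap. The pair is named because its r was the highest of those below. After each group's mean was subtracted, the brighter Fbn1 probe correlated over the 8 arrays at r = 0.95 with Mfap4, 0.92 with the other Fbn1 probe, 0.90 with the brighter Mfap2 probe, 0.80 with Efemp2 and 0.68 with Fbln5. The values for Fbn2 and Eln were 0.30 and 0.08. Those for the other probes were 0.50 for the dimmer Mfap2 probe, 0.30 and 0.10 for the Fbln1 probes, 0.25 for Mfap5 and −0.54 for Fbln2. Under quantile normalization, a centring on the spiked-in E1A control probes and the unscaled series matrix, r between Fbn1 and Mfap4 stayed between 0.91 and 0.99. In the unscaled matrix all probes share the brightness of their array, so a high r there says nothing of this pair in particular. These correlations describe 8 arrays that share scaling and, by group, slide.

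Over the brightest probes of 14286 other genes, those whose deviations were most like those of Eln were Clcc1 (r = 0.93), Plbd1 (0.93) and Braf (0.92), and those most like Fbn1 were Wdfy3 (0.99), Tmem63a (0.97) and Map4k5 (0.97), each over 8 arrays. With centring on the E1A controls the values for Tmem63a and Map4k5 were 0.73 and 0.71. Each list holds the largest of 14286 correlations over only 8 arrays, and such a maximum can be high among unrelated genes. What r chance alone would give was not tested.

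Calls depended on how bright a probe was. In the brightest quintile of the tested probes the median change was −0.17, with 0.735% called higher and 12.3% called lower; in the second dimmest quintile it was 0.05, with 5.88% and 4.5%. The brightest quintile held 8 of the 13 probes: the brighter Fbn1 probe, both for Fbln1, and those for Fbln2, Fbln5, Efemp2, Mfap4 and the brighter of Mfap2. Against the median of its own quintile the change was 1.02 and 1.06 for the Fbn1 probes, 0.97 for Fbn2 and 0.82 for Eln, but −0.26 for the first Fbln1 probe, −0.28 for Efemp2 and 0.26 for Fbln2.

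Quantile normalization, which makes the distribution of intensities the same on all arrays, reduced the calls in the brightest quintile from 702 to 218 lower and raised those higher from 42 to 105. Under it Eln changed by 0.78 (limma adjusted p 0.0171) and the Fbn1 probes by 0.93 (0.0191) and 1.07 (0.0158). Fbn2 at 0.98 (0.0547), the first Fbln1 probe at −0.28 (0.132) and Efemp2 at −0.31 (0.157) were not called. Centring on the E1A controls ended every call among the 13 except that of the second Fbn1 probe, testing without the filter on dim probes ended those of Fbn2 and Fbln1, and centring on the array median ended that of Fbln1. Over all probes the share of calls that were higher was 36.6% as reported and 46.7% under quantile normalization. In the unscaled series matrix it was 4.97%, where the median of all probes was −0.41; the changes of Eln, Fbn1 and Fbn2 were 0.41 to 0.73 there before that shift is taken off, and no probe of the 13 was called.

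**Figure D3:**
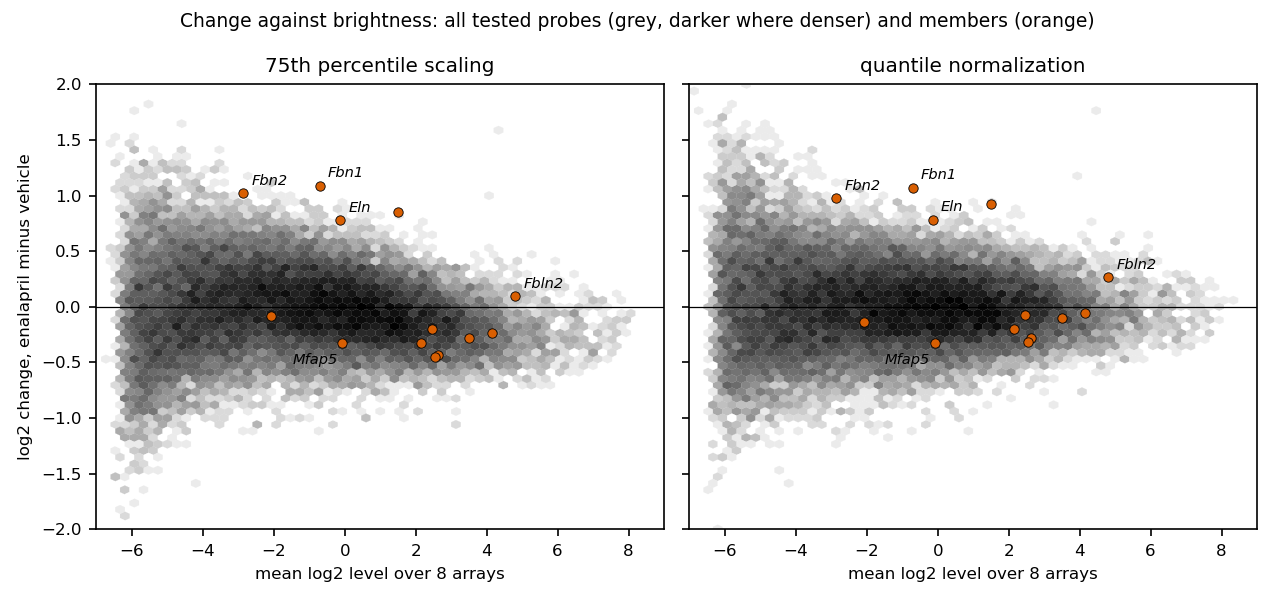
Log2 change, enalapril minus vehicle, against the mean log2 level over 8 arrays for all tested probes (grey hexagons, darker where denser) and the 13 probes of the elastic fibre genes (orange), with the 75th percentile scaling on the left and quantile normalization on the right. Eln, Fbn1 and Fbn2 lie near the upper edge of the cloud in both panels, while Fbln1 and Efemp2 move from −0.43 and −0.45 to −0.28 and −0.31.

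**Figure D4:**
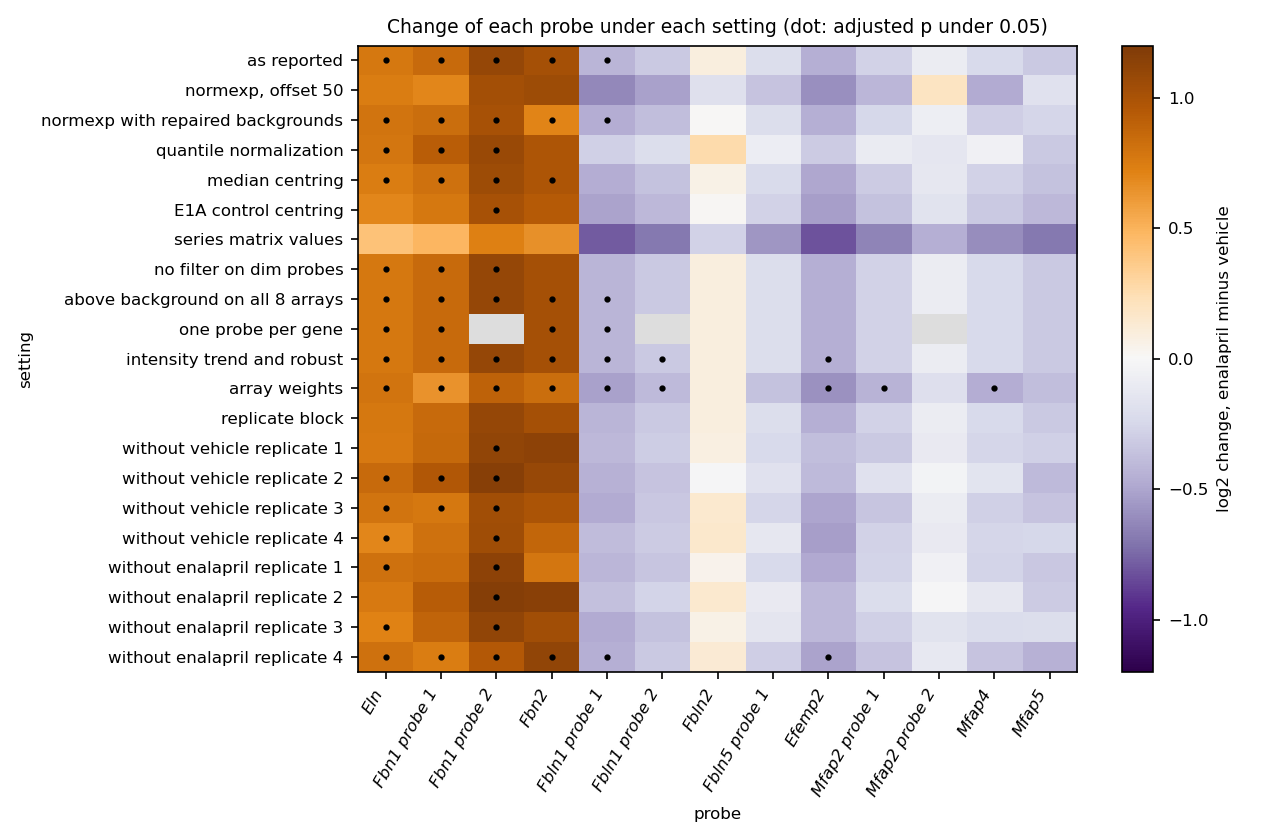
Log2 change, enalapril minus vehicle, of each tested probe (columns) under the reported setting and each alternative (rows), as colour; a dot marks an adjusted p under 0.05 and grey cells were not fitted. The columns of Eln, Fbn1 and Fbn2 are positive in every setting, and the second Fbn1 probe has a dot in all 8 settings that leave out 1 array.

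Other genes of the elastic fibre were listed by role. Of 50, 49 were on the array and 47 tested on their brightest probe; 0 were called higher and 3 lower at the limma adjusted p under 0.05, where 2.66% and 8.49% of the brightest probes of all 16181 named genes were. The median change of the 47 was −0.09, against −0.10 for all those genes.

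The crosslinking enzymes, lysyl oxidase and its relatives, had 5 of 5 genes tested and 0 called. Lox, which oxidises lysines of tropoelastin and collagen, stood at 0.44, 0.77, 0.24 and 0.25 in vehicle and at 0.98, 0.70, 0.96 and 1.16 in enalapril. The groups overlapped through vehicle 2 and enalapril 2, and the change was 0.53 ± 0.15 with a limma adjusted p of 0.0613. Loxl1, a relative needed to maintain elastic fibres in adults, changed by −0.14 ± 0.16 (0.6).

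Of the 21 tested genes of proteins associated with microfibrils or elastic fibres (latent TGF-beta binding proteins, emilins, multimerins and others), 0 were higher and 1 was lower. That was Emilin3, of the emilin family, with a change of −0.59 ± 0.15 and a limma adjusted p of 0.0418. Its vehicle array 1 stood at −3.06 and the other vehicle arrays at −3.58. Without 7 of the 8 arrays in turn the call was lost, at an adjusted p of at most 0.107. With another background correction (normexp, with the backgrounds of 6 spots repaired) Emilin3 changed by −0.25, at an adjusted p of 0.278, and without the filter on dim probes its adjusted p was 0.0723. A dimmer probe for Hmcn1, hemicentin-1, was called higher (0.57, adjusted p 0.0491) where its brightest probe was not (0.36, 0.257); it is named after its values were seen.

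Among proteases that can degrade elastic fibres, 9 of 11 were tested; Mmp7 and Elane, which encodes neutrophil elastase, were above background on no array. Prtn3, which encodes proteinase 3 of neutrophils, stood at −4.75, −4.62, −4.76 and −4.41 in vehicle and at −5.73, −5.26, −5.78 and −5.45 in enalapril, close to the background. Every enalapril array was below every vehicle array, and the change was −0.92 ± 0.15, 1.89-fold lower, with a limma adjusted p of 0.016 that stayed under 0.05 without each array in turn. The median local background of the arrays differed between the groups as well, at 57.5 to 66 intensity units in vehicle and 48 to 52 in enalapril. With the same repaired normexp correction Prtn3 changed by −0.04, at an adjusted p of 0.907. Mme, neprilysin, known as a fibroblast elastase of skin, changed by −0.16 ± 0.12 (0.401), and Mmp12, macrophage elastase, by −0.34 ± 0.26 (0.416). The remaining tested proteases were not called and went both ways. Ctsk changed by 0.81 ± 0.24 (limma adjusted p 0.0638), with every enalapril array above every vehicle array. Mmp2 and Ctsl changed by 0.25 and 0.03, and Mmp9, Ctsg and Ctss by −0.69, −0.58 and −0.03.

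Of 6 protease inhibitors, 0 were higher and 1 was lower. That was Cst3, cystatin C, an inhibitor of cysteine cathepsins, at −0.45 ± 0.11 with a limma adjusted p of 0.0423, lost without each array except enalapril 4 at up to 0.105. Under quantile normalization Cst3, a bright probe, changed by −0.27 (0.0894), and with median centring its adjusted p was 0.068. Centring on the E1A controls ended the calls of Emilin3, Prtn3 and Cst3. Of 6 genes of elastin or RGD receptors, 0 were called.

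**Figure D5:**
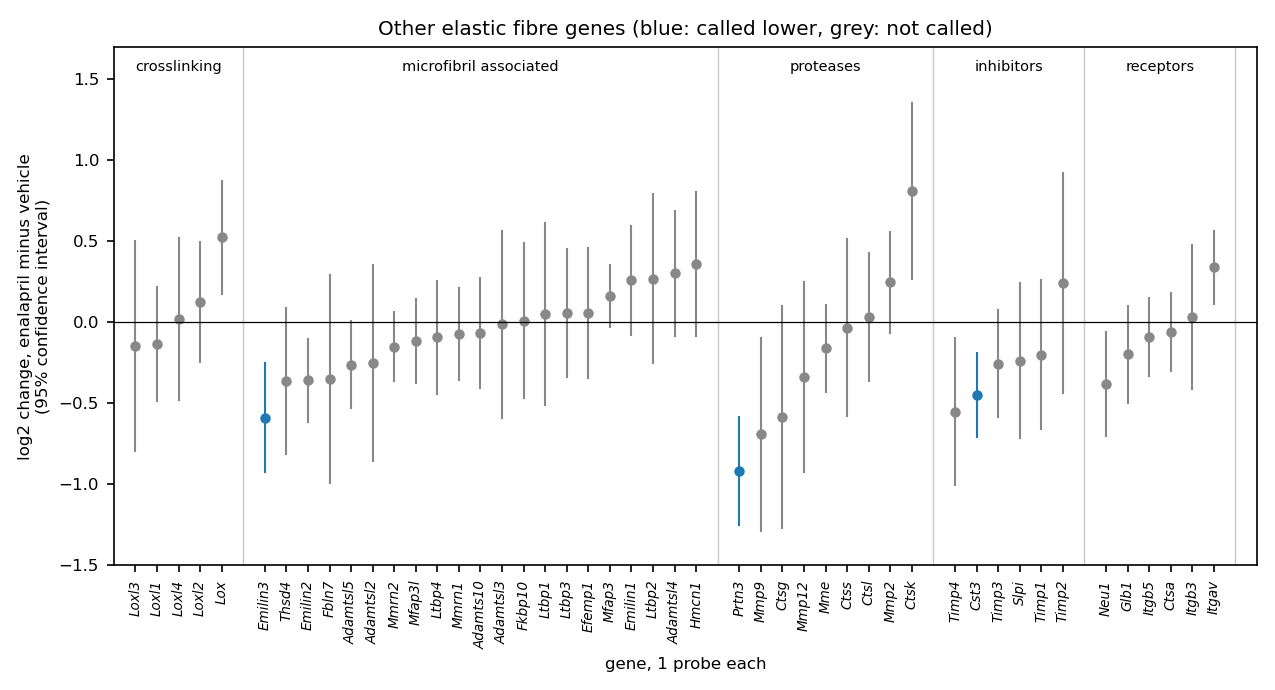
Log2 change, enalapril minus vehicle, with its 95% confidence interval from the limma fit (4 arrays per group), of the 47 other tested elastic fibre genes, 1 probe each, by role. The 3 genes called lower (blue) are Emilin3, Prtn3 and Cst3; no gene was called higher.

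Lists of cell type markers were measured beside these genes, also to check the tissue, so a listed cell type need not be present. Each list is given as the sum of its levels on a linear scale relative to the 75th percentile. A sum is compared between arrays, not between lists, and it rests mostly on the brightest probes of its list. The 12 fibroblast markers, cells that make most dermal microfibrils, were all tested, with 0 called on their brightest probes and sums of 706 to 1040 in vehicle and 816 to 904 in enalapril. Of 10 smooth muscle markers, cells that also make elastin, 3 were lower (Tagln, Lmod1 and Synpo2), against 8.49% of the brightest probes of all named genes. The sums were 80.3 to 107 in vehicle and 62.3 to 78 in enalapril. Of those not called, Myh11, Actg2 and Smtn changed by 0.36, 0.18 and 0.06. Acta2, Cnn1, Des and Mylk changed by −0.31, −0.20, −0.56 and −0.05. Dimmer probes for Synpo2 (−0.08 to 0.27) and Tagln (−0.16) were not called.

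Skeletal muscle markers were lower in 5 of 12, with sums of 738 to 1050 in vehicle and 602 to 700 in enalapril, and adipocyte markers in 5 of 10, with 313 to 399 and 204 to 314. Of the skeletal muscle markers not called, Myh4 changed by 0.225 and Atp2a1 by −0.04. Acta1, Myh1, Ckm, Actn3 and Ryr1 changed by −0.54, −0.42, −0.76, −0.67 and −0.36. Of the brightest probes of all named genes 8.49% were lower and 2.66% higher, and in the brightest quintile of all tested probes 12.3% were lower. Fabp4 and Cfd, the brightest of the adipocyte list, were not called (limma adjusted p 0.191 and 0.131). Endothelial sums were 14.7 to 16.7 and 13.1 to 18.4 with 0 of 8 called, and keratinocyte sums 1100 to 1840 and 1220 to 1470 with 0 of 10. Of 6 macrophage markers 1 was higher, Itgam, with sums of 41 to 45.9 and 36.9 to 47.9. Of 6 chondrocyte markers 4 were tested and 0 called, with sums of 9.18 to 11.8 and 9.24 to 11.7, and Matn1 was above background on no array. All these counts are over the brightest probe of each gene. Among the dimmer probes, named after their values were seen, 1 each for Col1a1 (fibroblast list, 0.89, limma adjusted p 0.0365), Trp63 (keratinocyte list, 0.77, 0.0437) and Sox9 (chondrocyte list, 1.31, 0.0401) was called higher. A dimmer probe for Tnnt3 (skeletal muscle list, −0.69, 0.0395) was called lower. These labels name the list and not the cell that made the RNA. The part of the smooth muscle, skeletal muscle and adipocyte differences in the values of the elastic fibre genes was not tested.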

How the data were processed

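The scanner text files hold 45018 spots per array, 43379 of them not controls, as an intensity on a linear scale that the authors deposited unscaled between arrays. Per the file headers it came from Agilent Feature Extraction 9.1.3.1, background-subtracted (the submitters' processing notes give version 9.1), and that software's deposited flags (0 or 1, other values) served as filters. Log2 values in the deposited series matrix, an alternative here, were the log2 of that intensity without centring, with array medians of 6.39 to 7.30. Any further step is not given in the sources used here.

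Spots with an outlier flag were removed, and spots of 1 probe were averaged on the log2 scale; 47 probes lost every spot on some array. Names were updated through the RefSeq genes of GRCm38.p6 (by accession for 22951 probes, by symbol for 6659, by synonym for 3096; 1486 kept the file's name, 6982 stayed unnamed). Tests used lmFit and eBayes of limma 3.58.1 in R 4.3.3, two-sided, group as the only term. Named genes were every probe of the 10 members, listed genes called on their brightest probe, Lox, Loxl1, Mme and Mmp12, and the 3 genes most like Eln and Fbn1. The other tested proteases are given to complete that list. The members and lists were chosen with earlier results of these data known. From 67.1% to 72.7% of probes were above background per array, and 4 arrays per group limit the precision. Alternatives were other background corrections, scalings, filters and fits, a replicate block, and each array left out.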

Additional observations from a re-analysis of the deposited data

Results flagged for a closer look

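Emilin3 in the vehicle group was marked because 1 array lies far from the others: vehicle 1 stood at −3.059 and the other vehicle arrays between −3.578 and −3.577, so that the gap made up 0.998 of the group's range. It was 1 of 44 groups of 4 arrays examined in this way, and chance alone marks about 1 in 20.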

How the results depend on the processing

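The number of probes called was 2981 as reported, and in all 1983 with median centring, 275 with centring on the E1A controls, 1550 in the series matrix, 1392 with no filter on dim probes, 8536 with array weights, 38 with the replicate block and 0 with plain normexp (where 6 spots with distorted backgrounds shifted 1 array). Leaving out 1 array gave 396 (without vehicle 1) to 6994 (without enalapril 4). The probes called higher among the 13, 4 as reported, numbered 0 with plain normexp, 1 with E1A centring, 0 in the series matrix and 1 to 4 with an array left out. The 1 called lower became 0 with plain normexp, quantile normalization, median centring, E1A centring, the series matrix and no filter, 3 with an intensity trend and robust fit, 5 with array weights and 0 to 2 with an array left out. With the replicate number as a block, 0 were called higher and 0 lower. After each group's mean was subtracted, same-numbered arrays correlated at −0.134 to 0.17 over all tested probes. These values show no strong pairing by number, but they cannot exclude a weak one or one limited to some probes.

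Some changes turned sign: Fbln2 to −0.181 (plain normexp), −0.272 (series matrix) and −0.011 (without vehicle 2, within −0.011 to 0.156 over the arrays left out), the second Mfap2 probe to 0.195, Emilin3 to 0.315 and Prtn3 to 0.69 (plain normexp), Loxl1 to 0.001 (quantile), and Mme to 0.628 (plain normexp) and 0.054 (repaired normexp). The cause was not tested. A slide block could not be fitted, since each group lay on 1 slide.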
